A study of Mus musculus with 32 samples.

Results

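The 10 genes Ager, Pdpn, Aqp5, Clic5, Akap5, Cav1, Emp2, Lmo7, Gprc5a and Hopx were followed as markers of alveolar type I (AT1) cells. They were chosen by name among the 11818 genes of the count table, and all 10 were present in it. AT1 cells are the thin, flat cells that cover most of the gas exchange surface of the lung. They arise from alveolar type II (AT2) cells, the surfactant-producing progenitors, and lose AT2 genes while they gain genes of the cell membrane, of caveolae and of cell junctions. Several of these genes are not restricted to AT1 cells: Cav1 is abundant in fibroblasts and endothelium, and Emp2, Clic5 and Hopx are found in further cell types.

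Epcam+ cells were isolated from lungs of C57BL/6J mice aged 8 to 14 weeks after removal of CD45+ and CD31+ cells, and were mixed with CCL206 cells, a mouse lung fibroblast line. The fibroblasts had been inactivated with 10 µg/mL mitomycin C, and 300000 cells of each kind were seeded together in Matrigel. Each culture received vehicle, extracellular vesicles (EVs, 1000000000 particles per mL), soluble factors (SFs, 30 µg/mL) or osteoglycin (OGN, 10 µg/mL) for 72 h. Both EVs and SFs had been prepared from MRC5 cells, a human lung fibroblast line. Afterwards the organoids were dissociated and re-sorted with Epcam microbeads into Epcam+ cells and CCL206 fibroblasts, and RNA of both was sequenced. Cells of 4 mice were used, each mouse in all 4 conditions, which gave 8 groups of 4 libraries. The fibroblasts were 1 line in all cultures, so the mouse number stands for the epithelium and the culture.

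The depth was between 1805914 and 17675454 counts in the Epcam+ libraries and between 3105312 and 16103497 in the CCL206 libraries. Each gene of the table was detected in each of the 32 libraries. Among the members the lowest counts were 53 in Epcam+ cells and 8 in CCL206 fibroblasts, both of Hopx. Of 10 endothelial genes only 1 was in the table (Pecam1 and Cdh5 were not), and of 8 immune genes 3 were (Ptprc was not). A gene without a count in any 1 library, also a fibroblast library, is absent, so absence does not show that Epcam+ cells were free of such RNA. Vehicle-treated Epcam+ cells of mouse 1 had 663 CPM (counts scaled to a common, TMM-normalized library size) of the AT2 gene Sftpc, against up to 6789 CPM in the other mice. In Epcam+ cells the 3 immune genes summed to 464 to 513 CPM with vehicle and 479 to 537 CPM with EVs. With SFs the sum was 553 to 648 CPM and with OGN 712 to 872 CPM. In bulk RNA, fewer cells of a type and less RNA per cell cannot be told apart.

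The positions of the members are those of RefSeq on GRCm38.p6. Ager, a receptor for advanced glycation end products, lies at chr17:34597460-34600937, and Pdpn, the membrane glycoprotein podoplanin, at chr4:143267409-143299564. Aqp5, a water channel, lies at chr15:99591028-99594829 and Clic5, a protein of the actin-linked apical membrane, at chr17:44134762-44280169. Akap5, an anchor of protein kinase A, lies at chr12:76324617-76334517 and Cav1, the main coat protein of caveolae, at chr6:17306335-17341328. Emp2, a tetraspan membrane protein, lies at chr16:10281749-10313968 and Lmo7, a junction protein that binds actin partners, at chr14:101729928-101934708. Gprc5a, an orphan receptor induced by retinoic acid, lies at chr6:135065662-135084709 and Hopx, a homeodomain protein that does not bind DNA, at chr5:77086986-77115123. The Hopx locus overlaps the antisense gene Hopxos, which was not in the count table, and reads of the pair cannot be told apart without strand.

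Ager, Cav1 and Hopx were lower with OGN in Epcam+ cells, so the 250 bases before their start sites are shown from RefSeq (GRCm38.p6), read 5′ to 3′ on the strand of the gene. Capitals mark matches to 6 motifs searched on both strands: GGAATG (bound by TEAD factors), CAAGTG (bound by NKX2-1), TGANTCA (AP-1), GGGCGG (GC box), CCAAT and TATAAA. The windows are chr17:34597600-34597849 for Ager on the plus strand, chr6:17306085-17306334 for Cav1 on the plus strand, and chr5:77115124-77115373 and chr5:77095268-77095517 for the upstream and the downstream start site of Hopx on the minus strand. The start site used for Ager, at 34597850, is downstream of the first base of the gene span given above, so its window lies inside that span.
Ager: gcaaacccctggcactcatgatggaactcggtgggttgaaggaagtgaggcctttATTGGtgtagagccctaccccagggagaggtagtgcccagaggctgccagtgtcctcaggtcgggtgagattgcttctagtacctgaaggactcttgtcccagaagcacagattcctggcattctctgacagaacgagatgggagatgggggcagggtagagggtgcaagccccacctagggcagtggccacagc
Cav1: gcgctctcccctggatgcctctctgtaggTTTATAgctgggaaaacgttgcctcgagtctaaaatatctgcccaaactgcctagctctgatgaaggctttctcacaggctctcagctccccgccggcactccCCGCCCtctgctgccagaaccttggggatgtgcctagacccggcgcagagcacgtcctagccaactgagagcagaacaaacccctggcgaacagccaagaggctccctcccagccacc
Hopx, upstream start: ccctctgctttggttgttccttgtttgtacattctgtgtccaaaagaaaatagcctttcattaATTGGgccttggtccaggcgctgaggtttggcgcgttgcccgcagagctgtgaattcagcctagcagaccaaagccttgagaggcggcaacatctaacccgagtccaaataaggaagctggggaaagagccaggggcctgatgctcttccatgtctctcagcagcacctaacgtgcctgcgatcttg
Hopx, downstream start: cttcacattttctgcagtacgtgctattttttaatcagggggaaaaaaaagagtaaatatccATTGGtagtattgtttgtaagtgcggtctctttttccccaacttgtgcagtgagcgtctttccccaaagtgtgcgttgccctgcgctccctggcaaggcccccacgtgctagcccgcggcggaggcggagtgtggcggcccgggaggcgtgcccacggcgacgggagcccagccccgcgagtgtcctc

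Ager and both Hopx windows held the CCAAT letters on the opposite strand, at 195, 187 and 188 bases before the start. The Cav1 window held a GC box 118 bases and a TATA box match 221 bases before the start, both on the opposite strand. A second start site of Cav1, with the window chr6:17307390-17307639, had no match to any of the 6 motifs and is not shown. A promoter was found for 9 of the 10 members, in 12 windows in all. None of the 12 held the TEAD, the NKX2-1 or the AP-1 letters, whereas 12.6%, 11.6% and 6.75% of all 32851 windows of this length did. GGGCGG was found in 6 of the 12 windows and in 32.7% of all windows. CCAAT was found in 4 of 12 and in 33.8% of all, and TATAAA in 1 of 12 and in 12.4% of all. Such matches describe the letters only.

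In vehicle-treated Epcam+ cells all 10 genes were well detected, and they differed widely in level. Per kilobase of transcript, Aqp5 had 467 ± 37.8 CPM (SD, n = 4), Gprc5a 272 ± 27.9 and Ager 229 ± 41.3. Emp2 and Lmo7 followed with 121 ± 9.54 and 114 ± 5.04 CPM per kilobase, a difference within their spread. Cav1 had 38.5 ± 6.15, Hopx 31.8 ± 3.75 and Clic5 23.6 ± 4.31 CPM per kilobase. The ranges of Cav1 and Hopx overlapped, whereas each Cav1 value and each Hopx value lay above each Clic5 value. The lowest levels were those of Pdpn, 10.9 ± 3.33, and Akap5, 10.4 ± 1.14 CPM per kilobase.

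**Figure D1:**
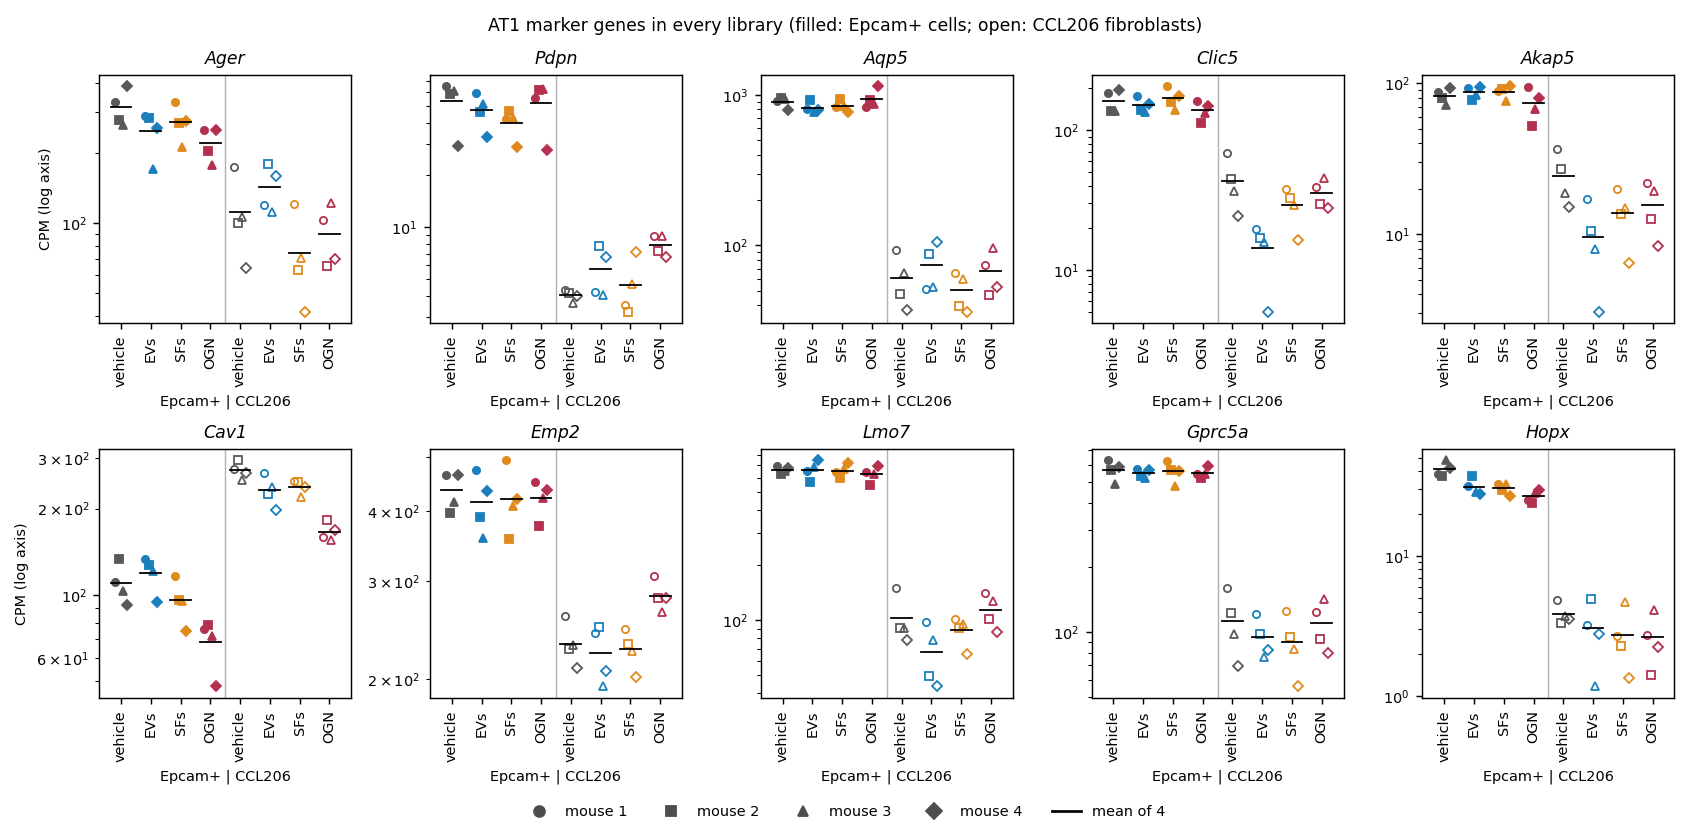
CPM (log axis) of the 10 AT1 marker genes in each of the 32 libraries, by treatment, with filled symbols for Epcam+ cells, open symbols for CCL206 fibroblasts, a symbol shape per mouse and a line at the mean of 4. Cav1 is the only panel in which the CCL206 libraries lie above the Epcam+ libraries, and Ager, Cav1 and Hopx in Epcam+ cells with OGN lie below vehicle in all 4 mice.

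The first question was how the markers were divided between the sorted populations. All 10 differed between Epcam+ and CCL206 libraries with vehicle, 9 higher in Epcam+ cells and Cav1 lower, in a comparison in which 69.6% of all genes passed the test. The median log2 fold change of the members was 2.18, against 0.019 for all genes. Aqp5 was 15.1-fold higher in Epcam+ cells (log2 fold change 3.91, SE 0.25, edgeR quasi-likelihood adjusted p = 2.74e-14), Pdpn 13.1-fold and Hopx 10.7-fold. Lmo7 was 6.63-fold and Gprc5a 5.22-fold higher. Clic5, Akap5 and Ager had smaller ratios of 3.91-fold, 3.53-fold and 2.95-fold, and Emp2 was 1.90-fold higher (log2 fold change 0.92, SE 0.085, adjusted p = 5.91e-11).

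Cav1 was 2.48-fold higher in the fibroblasts (log2 fold change -1.31 for Epcam+ over CCL206, SE 0.11, adjusted p = 2.96e-12). With vehicle it had 111, 133, 103 and 91.8 CPM in Epcam+ cells of mice 1 to 4 and 275, 294, 251 and 266 CPM in the fibroblasts. The ranges were far apart in each of the 4 cultures. Cavin3, which builds the caveola coat together with Cav1, was likewise lower in Epcam+ cells (log2 fold change -1.73, SE 0.18, adjusted p = 1.16e-09). Cav2 (0.71, SE 0.10, adjusted p = 6.03e-07) and Cavin2 (0.55, SE 0.088, adjusted p = 2.46e-06) were higher in Epcam+ cells.

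The same split held for all 10 genes with EVs (66.8% of all genes called), SFs (65.8%) and OGN (70.6%), with Cav1 at log2 fold changes of -0.95, -1.31 and -1.27. The fibroblast libraries still held a share of the epithelial signal. All 10 epithelial reference genes, among them Epcam and Cdh1, were higher in Epcam+ cells (median log2 fold change 4.13), and in vehicle-treated fibroblasts their mean level was between 3.97% (Epcam) and 10.3% (Cdh1) of that in Epcam+ cells of the same culture.

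With vehicle the members fell into 3 kinds against that range. Aqp5, Pdpn and Hopx had 6.71% ± 2.57 (SD, n = 4 cultures), 8.31% ± 3.504 and 9.49% ± 2.23 of the Epcam+ level in the fibroblasts, which was within the range of the epithelial genes. Lmo7 (15.4% ± 4.36), Gprc5a (19.7% ± 5.74), Clic5 (27.2% ± 10.6), Akap5 (29.7% ± 11.0), Ager (36.2% ± 14.9) and Emp2 (53.3% ± 5.55) had means above it. Cav1 stood at 251% ± 28.7. In the other conditions Pdpn lay above the range of the epithelial genes, at 13.01% with EVs (range 4.93% to 11.3%), 12.7% with SFs (3.13% to 7.96%) and 16.4% with OGN (5.50% to 12.7%). Hopx lay above it with SFs, at 8.86%. Clic5 (9.61%), Lmo7 (10.2%) and Akap5 (11.2%), above the range with vehicle, lay within it with EVs. AT2 genes without Hopx also had a high median share of 26.5% ± 9.86, so a share above the range of the 10 epithelial genes was not particular to the AT1 markers. Whether fibroblasts made these transcripts, took up epithelial RNA, or were sorted together with epithelial cells or their RNA was not tested.

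In the opposite direction, 9 fibroblast genes had a median level in Epcam+ cells of 21.5% ± 4.35 of that in the fibroblasts with vehicle, and Cav1 had 40.3% ± 4.43. Of the 9 genes, 8 were lower in Epcam+ cells and 1 was higher, Fbln1, whose level in the fibroblasts was 13.7% of that in Epcam+ cells. With EVs the shares were 35.3% ± 9.20 for the fibroblast genes and 51.3% ± 3.62 for Cav1. With OGN the shares were 19.1% ± 2.11 and 41.5% ± 8.96. The part of fibroblast RNA in the Cav1 values of Epcam+ cells was not tested.

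**Figure D2:**
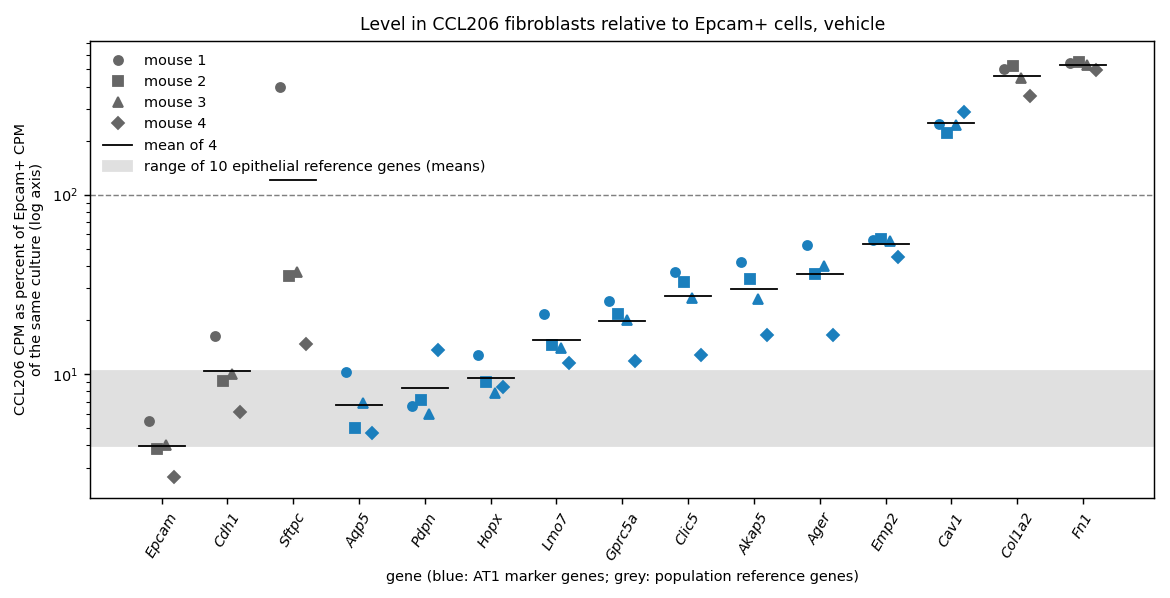
Level in CCL206 fibroblasts as a percent of the level in Epcam+ cells of the same vehicle-treated culture (log axis), for the 10 AT1 marker genes (blue) and 5 reference genes (grey), with a symbol per mouse and a line at the mean. The grey band spans the means of the 10 epithelial genes, 3.97% to 10.3%: the means of Aqp5, Pdpn and Hopx lie in it, those of 6 members lie between it and 100%, and that of Cav1 is 251%.

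The second question was whether the treatments moved AT1 markers in Epcam+ cells. With OGN, Ager, Cav1 and Hopx were lower than with vehicle, 3 of 10 members, in a comparison in which 2.70% of all genes passed the test. No member was higher. The median log2 fold change of the 10 was -0.13, against -0.0031 for all genes.

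Cav1 in Epcam+ cells with OGN had 76.3, 78.2, 72.0 and 47.9 CPM in mice 1 to 4, all below the lowest vehicle value of 91.8 CPM. The log2 fold change was -0.67 (SE 0.089, 95% interval -0.86 to -0.49, adjusted p = 4.13e-05), and the gene was lower in 4 of 4 mice. It was also lower with OGN than with EVs (-0.78, SE 0.087, adjusted p = 9.71e-06), the only member so called there, where 2.22% of all genes passed. With EVs it had 133, 127, 121 and 94.7 CPM, so these groups did not overlap either. The other 9 members lay between -0.24 (Akap5) and 0.22 (Aqp5). Of 9 fibroblast genes, 6 were lower in the same comparison (median -0.65), and with OGN against vehicle 2 were lower and 1 higher (median -0.18). Their part in the fall of Cav1 was not tested.

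Against SFs, Cav1 with OGN was lower in 4 of 4 mice (-0.48, SE 0.089, adjusted p = 0.00476), and no other member passed where 1.91% of all genes did. With SFs it had 117, 96.1, 95.1 and 74.5 CPM, a range that overlapped with OGN. The call was lost without mouse 1 (adjusted p = 0.0807) and without mouse in the model (0.175). The other 9 members lay between -0.29 (Ager) and 0.38 (Pdpn). Of the 9 fibroblast genes, 5 were lower and 1 was higher in this comparison (median -0.42).

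Ager in Epcam+ cells had 333, 278, 265 and 390 CPM with vehicle and 251, 204, 178 and 252 CPM with OGN in mice 1 to 4. It was lower in each mouse, and the groups did not overlap. The log2 fold change was -0.52 (SE 0.094, 95% interval -0.71 to -0.32, adjusted p = 0.00173). Without mouse in the model the adjusted p was 0.130.

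Hopx had 38.1, 37.0, 47.7 and 42.4 CPM with vehicle and 25.01, 23.6, 28.2 and 29.3 CPM with OGN. All OGN values lay below all vehicle values. The log2 fold change was -0.64 (SE 0.13, 95% interval -0.92 to -0.36, adjusted p = 0.0077), and the call was lost without mouse 1 (adjusted p = 0.080) or mouse 3 (0.0997). Hopx also belongs to the AT2 signature the study used, and none of the other 9 genes of that signature was called lower: Sftpa1 (0.42, SE 0.085, adjusted p = 0.00496) and Sftpd (0.45, SE 0.093, adjusted p = 0.00673), both surfactant proteins, were higher and 7 were not called.

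The other 7 members were not called with OGN. Clic5 came closest, at -0.22 (95% interval -0.38 to -0.054, adjusted p = 0.191), and was lower in 4 of 4 mice. The intervals of the other 6 ran from -0.40 (Akap5) to 0.26 (Aqp5). Pdpn (-0.043, interval -0.28 to 0.20), Emp2 (-0.045, -0.19 to 0.10) and Gprc5a (-0.042, -0.19 to 0.11) were the 3 with values nearest to 0.

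Among 21 of 26 further AT1 genes found in the table, 6 were lower and 1 was higher in Epcam+ cells with OGN (median -0.22). Ndnf, a secreted factor (-0.59, SE 0.087, adjusted p = 0.000173), Sec14l3 (-0.49, SE 0.083, adjusted p = 0.000859) and Ahnak, a large scaffold protein (-0.44, SE 0.084, adjusted p = 0.00283), were lower. Itgb6, an integrin subunit, was higher (0.52, SE 0.11, adjusted p = 0.00608). Of 14 genes of the state between AT2 and AT1 cells, Plaur was higher (0.42, SE 0.096, adjusted p = 0.0159) and Cdkn1a lower (-0.33, SE 0.085, adjusted p = 0.038). Of 7 caveola genes, Cav1 and Cavin2 (-0.55, SE 0.073, adjusted p = 4.13e-05) were lower. A list of 15 genes held Nkx2-1 and genes of the YAP and TEAD axis, which is known to act in AT1 differentiation. Of these 15, 1 was higher and 1 lower (median 0.029).

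With EVs no member was called in Epcam+ cells, where 0.888% of all genes were. At an unadjusted p under 0.05 there were 2, and DESeq2 called 1. Ager had 288, 283, 171 and 257 CPM, lower than vehicle in 3 of 4 mice and overlapping it, with a log2 fold change of -0.37 (95% interval -0.57 to -0.18, adjusted p = 0.0619). DESeq2 gave an adjusted p of 0.0144. Hopx had 31.3, 37.0, 28.4 and 27.6 CPM with EVs, also below vehicle in 3 of 4 mice (-0.44, interval -0.71 to -0.17, adjusted p = 0.143). The other 8 lay between -0.17 (Pdpn) and 0.11 (Cav1).

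With SFs no member was called by edgeR or DESeq2, where edgeR called 0.230% of all genes. At an unadjusted p under 0.05 there were 4. Hopx had 32.6, 29.3, 32.7 and 26.6 CPM, all below the vehicle values (-0.44, interval -0.72 to -0.16, adjusted p = 0.338). Pdpn was lower in 4 of 4 mice (-0.42, interval -0.67 to -0.18, adjusted p = 0.271), but its groups overlapped. The other 8 lay between -0.23 (Ager) and 0.066 (Akap5). Pdpn in mouse 4 was low in all 4 conditions, at 29.3 CPM with vehicle, 33.0 with EVs, 29.1 with SFs and 28.0 with OGN, against 41.8 to 65.3 CPM in the other mice.

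Airway markers moved in the same libraries. Of 4 basal genes 3 were lower with EVs, with SFs and with OGN (medians -0.69, -0.68 and -0.64), and of 5 secretory and ciliated genes 3, 2 and 3 were. The summed CPM of the basal genes ran from 883 to 2562 with vehicle and from 471 to 1603 with OGN. That of the secretory and ciliated genes ran from 3589 to 4519 and from 1735 to 2943. Their part in the values of the AT1 markers was not tested. The 10 epithelial genes had no call in the comparisons of EVs, SFs and OGN with vehicle in Epcam+ cells, with medians of -0.12, -0.12 and 0.066.

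Over all 10 members, the mean log2 CPM in Epcam+ cells was 7.69 ± 0.067 (SD, n = 4) with vehicle, 7.58 ± 0.10 with EVs, 7.56 ± 0.11 with SFs and 7.45 ± 0.080 with OGN. The mean of the 9 AT2 genes was 9.48 ± 0.17, 9.44 ± 0.14, 9.71 ± 0.17 and 9.63 ± 0.13 in the same order. The AT1 mean minus the AT2 mean was -1.78 ± 0.21 with vehicle, -1.86 ± 0.088 with EVs, -2.14 ± 0.18 with SFs and -2.18 ± 0.14 with OGN. For this difference the ranges with vehicle and with OGN overlapped, whereas the AT1 means alone did not, at 7.64 to 7.79 with vehicle and 7.36 to 7.55 with OGN. Ager, Cav1 and Hopx, the 3 members called with OGN, are part of this AT1 mean. The summed CPM of the 10 members overlapped, at 3184 to 3522 with vehicle and 2894 to 3464 with OGN. These means and sums describe the members together and were not tested.

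**Figure D3:**
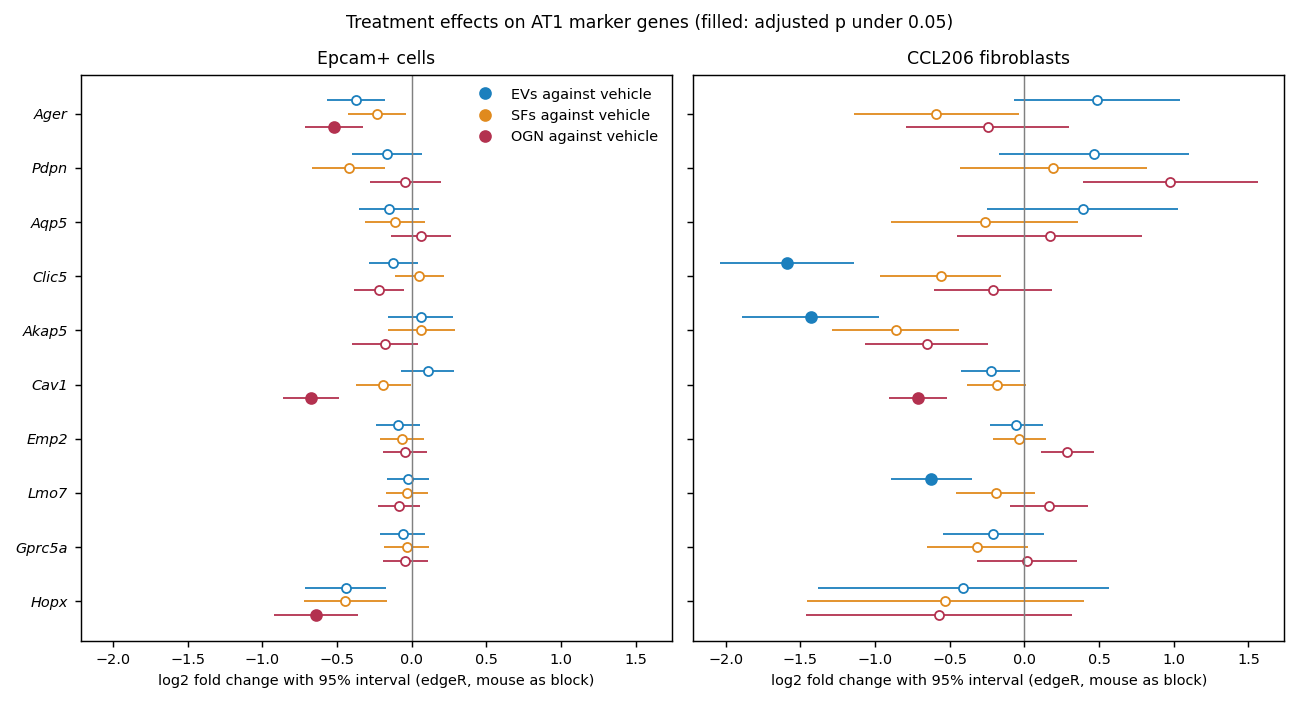
Log2 fold changes of the 10 AT1 marker genes against vehicle with 95% intervals (edgeR with mouse as block), in Epcam+ cells (left) and CCL206 fibroblasts (right), for EVs, SFs and OGN, with filled points for an adjusted p under 0.05. With OGN, Ager, Cav1 and Hopx are filled on the left and Cav1 on the right, and with EVs Clic5, Akap5 and Lmo7 are filled on the right.

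In the fibroblast libraries Cav1 was lower with OGN than with vehicle. With OGN it had 159, 182, 155 and 168 CPM in mice 1 to 4, against 275, 294, 251 and 266 CPM with vehicle. It was lower in 4 of 4 cultures, without overlap (log2 fold change -0.71, SE 0.092, 95% interval -0.91 to -0.52, adjusted p = 0.000147). It was the only member of 10 called there, where 4.56% of all genes were. Cavin2 fell as well (-0.72, SE 0.091, adjusted p = 0.000116), and 5 other caveola genes were not called.

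The OGN effect on Cav1 in the fibroblasts and that in Epcam+ cells differed by -0.037 (CCL206 minus Epcam+, 95% interval -0.30 to 0.22). No member was called in this interaction, where 0.551% of all genes were, with 3 members at an unadjusted p under 0.05. DESeq2 called 2, Pdpn and Emp2. Pdpn was nearest in edgeR, at 1.01 (SE 0.26, 95% interval 0.48 to 1.54, adjusted p = 0.0768). The other 8 lay between -0.47 (Akap5) and 0.33 (Emp2).

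Pdpn in the fibroblasts had 4.33, 4.16, 3.63 and 3.96 CPM with vehicle and 8.84, 7.25, 8.87 and 6.66 CPM with OGN. These rest on 30 to 41 counts with vehicle and 39 to 144 with OGN. It was higher in 4 of 4 cultures without overlap (log2 fold change 0.98, 95% interval 0.39 to 1.56), with an adjusted p of 0.0556. Emp2 was likewise higher in 4 of 4 cultures, from 260, 226, 231 and 209 CPM to 306, 280, 264 and 280 CPM (0.29, interval 0.11 to 0.46, adjusted p = 0.0673). Akap5 was lower in 3 of 4 (-0.65, interval -1.07 to -0.24, adjusted p = 0.0722). The remaining 6 lay between -0.57 (Hopx) and 0.17 (Aqp5). Without the EV-treated libraries in the model the adjusted p was 0.0123 for Pdpn, 0.00162 for Emp2 and 0.00866 for Akap5. In that setting the calls over all genes rose as well, from 533 to 1770. The 10 epithelial genes had a median of 0.52 in this comparison with no call.

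Against SFs, Cav1 in the fibroblasts was lower with OGN in 4 of 4 cultures (-0.52, SE 0.092, adjusted p = 0.00453), 1 of 10 members where 2.79% of all genes were called. Its ranges, 155 to 182 CPM with OGN and 219 to 250 CPM with SFs, did not overlap. The adjusted p was 0.0678 without mouse 2 and 0.0629 without mouse 3. The other 9 members lay between -0.041 (Hopx) and 0.78 (Pdpn). SFs against vehicle gave no call among the members and 0.0599% of all genes. At an unadjusted p under 0.05 there were 3 members, and DESeq2 called Akap5. Akap5 had 36.8, 27.2, 18.8 and 15.2 CPM with vehicle and 20.0, 13.7, 14.9 and 6.44 CPM with SFs, lower in 4 of 4 cultures (-0.86, interval -1.29 to -0.44, adjusted p = 0.389). Ager (-0.59, interval -1.14 to -0.035) and Clic5 (-0.56, -0.97 to -0.15) were lower in 4 of 4 as well. The other 7 lay between -0.53 (Hopx) and 0.19 (Pdpn). Of these, Aqp5, Cav1 and Gprc5a were also lower in 4 of 4 cultures. Cav1 (-0.19, interval -0.38 to 0.0075) had 219 to 250 CPM with SFs and 251 to 294 CPM with vehicle, without overlap. The 10 epithelial genes had a median of -0.34.

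With EVs, Clic5, Akap5 and Lmo7 were lower in the fibroblast libraries, 3 of 10 members in a comparison in which 36.0% of all genes were called. Clic5 fell from 68.6, 44.7, 36.5 and 24.5 CPM with vehicle to 19.7, 16.8, 15.9 and 5.02 CPM, without overlap (log2 fold change -1.59, SE 0.21, adjusted p = 0.00111). Akap5 fell from the vehicle values above to 17.2, 10.5, 7.96 and 3.07 CPM, with overlap between mice (-1.43, SE 0.22, adjusted p = 0.00199). Lmo7 fell from 151, 91.1, 91.2 and 77.6 CPM to 98.1, 49.7, 77.8 and 43.5 CPM (-0.62, SE 0.13, adjusted p = 0.00477). Each was lower in 4 of 4 cultures. Lmo7 was not called without mouse in the model (adjusted p = 0.0590) or with only the 8 libraries compared (0.0519). The lowest Akap5 and Clic5 values, both of mouse 4, rest on 11 and 18 counts. The EV-treated fibroblast libraries held 3105312, 3868922, 7605452 and 3906707 counts in mice 1 to 4, against 7148561 to 10496280 with vehicle. Pearson's r with log10 depth over the 16 fibroblast libraries was 0.50 for Clic5, 0.42 for Lmo7 and 0.30 for Akap5. The part of depth in the values of these 3 members was not tested.

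These are the 3 members with the longest transcripts, 7969 nt (Akap5), 6902 nt (Clic5) and 5798 nt (Lmo7). In the EV-treated fibroblast libraries the deviation from vehicle fell with transcript length over all genes, with Spearman's rho of -0.29, -0.58, -0.36 and -0.62 in mice 1 to 4, a description across genes. In the SF-treated and OGN-treated fibroblast libraries rho was between -0.24 and 0.11. With this trend removed, Clic5 was at -1.25 (adjusted p = 0.00134), Akap5 at -1.02 (0.00507) and Lmo7 at -0.36 (0.0185), and Cav1 (-0.30, 0.029) and Gprc5a (-0.44, 0.0215) were called as well. Without mouse 2 only Clic5 remained called among the members, with Akap5 at an adjusted p of 0.0507 and Lmo7 at 0.0653, and over all genes the calls dropped from 4207 to 19. Without mouse 4 there were 711 calls over all genes, with the same 3 members called.

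**Figure D4:**
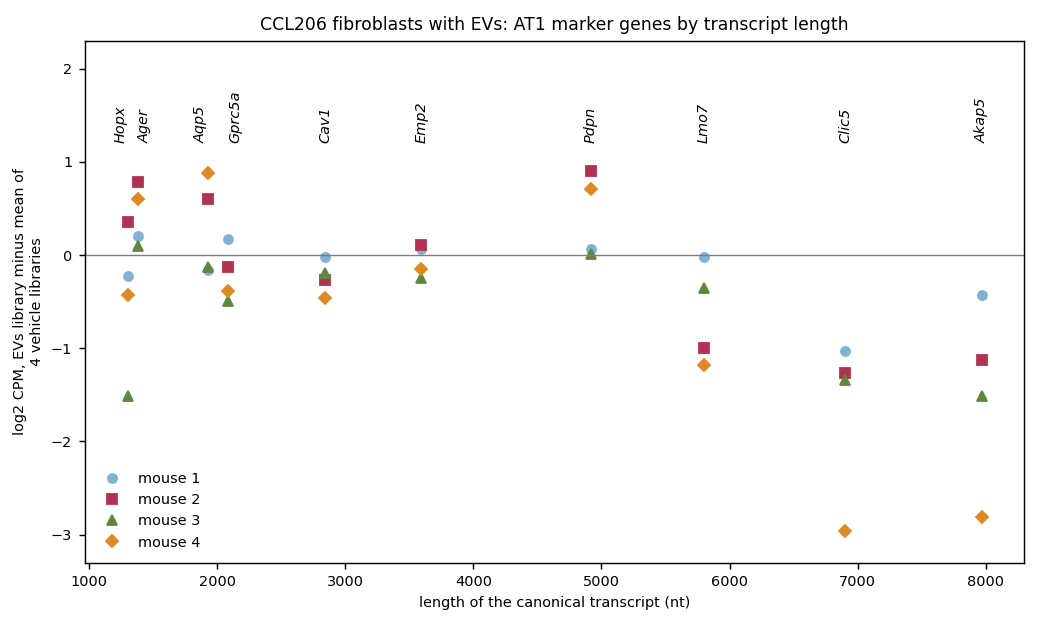
Log2 CPM of each EV-treated CCL206 library minus the mean of the 4 vehicle-treated libraries, for the 10 AT1 marker genes against the length of the canonical transcript (nt), with a symbol per mouse. The 3 longest members, Lmo7, Clic5 and Akap5, lie below 0 in each mouse, with mouse 4 lowest, whereas Ager and Pdpn lie above 0 in each.

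The other 7 members were not called with EVs, and their values had both signs. Ager had 120, 179, 111 and 159 CPM in the fibroblasts with EVs, higher than vehicle in 3 of 4 cultures (0.48, interval -0.072 to 1.04, adjusted p = 0.154), and with the length trend removed 0.014. Pdpn was at 0.47 (interval -0.17 to 1.10) and Aqp5 at 0.39 (-0.25 to 1.03). Hopx, the shortest member, was at -0.41 (-1.39 to 0.57), Cav1 at -0.23 (-0.42 to -0.032), Gprc5a at -0.21 (-0.55 to 0.13) and Emp2 at -0.054 (-0.23 to 0.12). Ager was called without mouse 1 (adjusted p = 0.0230). Of 14 genes of the state between AT2 and AT1 cells 7 were higher and none lower (median 0.55), where 36.0% of all genes were called. Among the 7 were Cdkn1a (0.66, SE 0.13, adjusted p = 0.00462), Lgals3 (0.54, SE 0.14, adjusted p = 0.0107) and Krt19 (1.28, SE 0.36, adjusted p = 0.0155). Of the 10 epithelial genes 3 were higher in the same libraries (median 0.52), and Krt8 and Krt18 belong to both lists.

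The effect of EVs differed between the populations for 5 members in the interaction test, in which 23.8% of all genes were called. Clic5 (-1.48, SE 0.21, adjusted p = 0.00187), Akap5 (-1.50, SE 0.23, adjusted p = 0.00187), Lmo7 (-0.62, SE 0.14, adjusted p = 0.00603) and Cav1 (-0.36, SE 0.12, adjusted p = 0.0385) had a lower log2 fold change in the fibroblasts than in Epcam+ cells. Ager had a higher one (0.83, SE 0.29, adjusted p = 0.0391). The other 5 lay between -0.18 (Gprc5a) and 0.59 (Pdpn). For SFs the interaction called 0 of 10 members and 0% of all genes with edgeR, with 3 members at an unadjusted p under 0.05 and none called by DESeq2, and the values ran from -0.94 (Akap5) to 0.60 (Pdpn).

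In the comparison of OGN with EVs in the fibroblasts, 6 members were called, where 37.6% of all genes were. Clic5 (1.38, SE 0.21), Akap5 (0.78, SE 0.22), Lmo7 (0.79, SE 0.13) and Emp2 (0.34, SE 0.084) were higher with OGN, and Ager (-0.73, SE 0.26) and Cav1 (-0.48, SE 0.093) were lower. The adjusted p were between 0.000596 (Clic5) and 0.0397 (Ager). This comparison shares the EV-treated libraries with the one before. Without mouse 2 there were 3 calls, and with the length trend removed Akap5 and Ager were not called (adjusted p = 0.191 and 0.241) and Gprc5a was (0.43, adjusted p = 0.0195). Without mouse in the model Ager (adjusted p = 0.0951) and Akap5 (0.194) were not called. The 4 members not called lay between -0.22 (Aqp5) and 0.51 (Pdpn).

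The members did not vary as 1 block across the Epcam+ libraries. Over the 16 libraries, which share 4 mice, the 45 pairs of members had a median Pearson's r of log2 CPM of 0.16, from -0.50 (Pdpn and Lmo7) to 0.79 (Ager and Clic5). Clic5 also had r of 0.79 with Akap5, 0.75 with Gprc5a and 0.74 with Emp2. Hopx was most like Ager among the members (0.55), and Aqp5 had at most 0.16 with any other member. In the 16 fibroblast libraries the highest value was that of Clic5 and Akap5 (0.92), the lowest that of Pdpn and Cav1 (-0.81). Ager had r of 0.95 with Sftpc there.

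Over all genes of the table, the gene most like each member across the 16 Epcam+ libraries was never another member. It was Osbpl9 for Ager (0.94), Mgat2 for Aqp5 (0.93), Itgb4 for Pdpn (0.92), Ercc6l2 for Cav1 (0.90) and Gab1 for Clic5 (0.89). It was Dram2 for Gprc5a (0.87), Car2 for Emp2 (0.87), Zfp760 for Lmo7 (0.85), Col4a4, a collagen chain of basement membranes, for Akap5 (0.83) and Ces1d for Hopx (0.83). Pearson's r of the members with log10 depth in these libraries lay between -0.44 (Aqp5) and 0.41 (Lmo7). In the 16 fibroblast libraries it lay between -0.20 (Ager) and 0.50 (Clic5).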

How the data were processed

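Gene expression was measured by RNA-seq in 32 libraries, 16 of each sorted population. The authors trimmed the reads (Trimmomatic 0.30 per the labels), aligned them and deposited raw counts per gene, not normalized. The aligner and the counter are not given in the sources used here. The study's methods name GRCm38 and the labels name GRCm39. All count columns were used.

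Counts were normalized by TMM and tested with edgeR (4.0.16, R 4.3.3), quasi-likelihood test. The model held treatment and mouse and was fitted to each population's 16 libraries. For comparisons between populations and interactions it was fitted to all 32, with the 8 groups and mouse. The mouse term was shared by both populations in the comparisons between them and separate for each population in the interactions. filterByExpr left 11716 genes (Epcam+), 11689 (CCL206) and 11805 (both). P-values were adjusted by Benjamini-Hochberg over all genes tested, with a threshold of 0.05, in 17 comparisons. Standard errors were derived from the log2 fold change and its F statistic. CPM were scaled to the TMM-normalized library size. A prior count of 2 was added for log2 CPM. Intervals cover 95%.

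Same-numbered samples came from the same mouse, per the labels. Their deviations from group means had mean correlations of 0.087 to 0.224, against -0.070 to -0.030 for different mice. None of 48 pairs of replicates looked like 1 library deposited again (chi-square over degrees of freedom at least 2.98).

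Depth was between 1805914 and 17675454 counts per library. Transcript lengths (GENCODE, GRCm39) were matched for 98.9% of genes. Alternatives were RLE size factors, DESeq2 (1.42.0), other filters, no mouse term, each mouse left out, removal of the length trend (lowess over all genes), and smaller sets of libraries. The fit was also run on simulated counts that held no mouse effect and no length trend, so that run cannot check either. The members and lists were chosen with earlier results of these data known. The lists come from general knowledge, except the AT2 and fibroblast signatures, which the study chose. Of the members, the study itself used Emp2, Lmo7 and Gprc5a as AT1 markers. It reported these and its own composite AT1 signature as unaffected by EVs, SFs and OGN. In each comparison the members are given by value or within a range, and of other lists at most 3 genes per direction with the smallest p among those called. The GC, CCAAT and TATA boxes were added after the first 3 motifs had given no match.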

Additional observations from a re-analysis of the deposited data

Results flagged for a closer look

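The effect of EVs against vehicle differed between CCL206 fibroblasts and Epcam+ cells for 5 AT1 marker genes in the interaction test (edgeR, all 32 libraries, adjusted p under 0.05). The difference on the log2 scale, CCL206 minus Epcam+, was -1.48 for Clic5, -1.50 for Akap5, -0.62 for Lmo7, -0.36 for Cav1 and 0.83 for Ager. With the trend on transcript length removed, the values were -1.13 for Clic5 (adjusted p = 0.00356), -1.09 for Akap5 (0.00699), -0.33 for Lmo7 (0.0673), -0.40 for Cav1 (0.0389) and 0.36 for Ager (0.26). Cav1 was not called when any 1 of the 4 mice was left out (adjusted p between 0.0657 and 0.161), and Ager was not called without mouse 2, 3 or 4 (0.138, 0.0717 and 0.405). Lmo7 was not called without mouse 2 (0.0503) or mouse 4 (0.0865). In none of the 80 groups of 4 values (10 genes in 8 groups) did a library stand apart by Dixon's criterion, which chance would meet in about 1 of 20 groups.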

How the results depend on the processing

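Of 1888 values of single genes under an alternative, 1803 kept their direction where called and their side of the threshold, 46 passed it newly, 39 no longer passed it and 0 reversed. In the comparisons of the populations all 10 members were called under each alternative run, except that Hopx was not tested with at least 10 counts in every library, which left 9. The cause of the following moves was not tested. With DESeq2 the number of members called became 1 (EVs) and 2 (OGN against SFs) in Epcam+ cells, 1 (SFs), 4 (OGN) and 2 (OGN against SFs) in CCL206 fibroblasts, and 2 in the OGN interaction. Without the replicate block (mouse) it became 0 for OGN against SFs in Epcam+ cells, 2 for OGN in CCL206 and 2 for the EV interaction, and it was 2 in place of 3 for OGN in Epcam+ cells and for EVs in CCL206, and 4 in place of 6 for OGN against EVs in CCL206. No call changed its direction without the block. With the length trend removed it became 1 (EVs) and 2 (OGN against SFs) in Epcam+ cells, 5 (EVs), 3 (OGN) and 2 (OGN against SFs) in CCL206 and 3 in the EV interaction. With only the 8 libraries compared it became 2 (EVs), 4 (SFs), 4 (OGN), 2 (OGN against EVs) and 4 (OGN against SFs) in CCL206, and without the EV-treated libraries 2 (SFs), 4 (OGN) and 4 (OGN against SFs). With at least 10 counts in every library it became 2 for OGN and 2 for OGN against SFs in CCL206, and with RLE size factors 2 for OGN against SFs. Leaving out 1 mouse gave 0 to 1 (EVs), 2 to 3 (OGN) and 0 to 2 (OGN against SFs) in Epcam+ cells. In CCL206 it gave 1 to 5 (EVs), 1 to 2 (OGN), 3 to 6 (OGN against EVs) and 0 to 1 (OGN against SFs), and 2 to 4 in the EV interaction. The number of genes called over the whole table also moved. For EVs in CCL206 it went from 4207 to 19 without mouse 2, to 711 without mouse 4 and to 387 with only the 8 libraries compared. With only these 8 it rose in CCL206 from 7 to 302 (SFs), 533 to 1370 (OGN) and 326 to 1282 (OGN against SFs). For OGN against EVs it fell from 4397 to 912. Without the EV-treated libraries it rose to 108 (SFs), 1770 (OGN) and 1290 (OGN against SFs). The table holds only genes with a count in every library, so markers absent from 1 library were not analysed here. Hopx and Pdpn in CCL206, with as few as 8 and 13 counts, allow only wide intervals.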
